A study of Mus musculus with 29 samples.

Results

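TRAV7-2 and TRAV7D-2 are variable (V) segments of the mouse T cell receptor alpha chain (TRA). They were followed through metastases to the brain and the ovary of Braf-mutated mouse melanoma under 5 treatments. All alpha chain clonotypes whose V name was made only of V7-2 and V7D-2 were taken as members, a clonotype being 1 combination of V name, joining (J) segment and CDR3 in amino acids. They numbered 1530 of 21959 TRA clonotypes (6.97%) and held 66125 of 319742 TRA counts (20.7%). The pair was chosen by its measured share of TRA counts in brain metastases of the lead-in combination. Every comparison of that treatment with another is therefore given here as a description with no test. Tests between organs and of members against other TRA clonotypes do include its samples.

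The series asks whether an antibody against PD-L1, which restrains T cells through the checkpoint receptor PD-1, helps more when it is begun before a MAPK inhibitor combination. All groups came from the same experimental metastasis model. The labels do not give the mouse strain, sex, age or alleles other than the Braf mutation. The lead-in combination was anti-PD-L1 lead-in followed by trametinib (an inhibitor of the MAPK pathway kinase MEK) with anti-PD-L1, sampled at day 3. The concurrent combination was trametinib with anti-PD-L1 at day 3, and trametinib was given alone at day 3. Anti-PD-L1 lead-in alone was sampled at day 0, as were the untreated samples, which the titles call vehicle. Brain metastases gave 19 samples, 4 per treatment and 3 untreated, and ovary metastases gave 10 samples, 2 per treatment. Sample titles carry a number and usually a part, so there were 2 numbers per treatment in brain and 1 in ovary, and 5 numbers (1, 3, 10, 12 and 13) were sampled in both organs. Neither the number nor the part is explained in the labels, so p-values here measure only the spread between numbers, which may be technical. The table holds only receptor chains, so no tissue markers were analysed here. In bulk RNA, fewer cells of a clone and less receptor RNA per cell cannot be told apart.

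The alpha chain is assembled in the thymus by joining 1 of many V segments to 1 of many J segments. The first residues of the CDR3 come from the V segment, the last from the J segment, and those between from trimming and random addition at the junction, where most contact with antigenic peptide takes place. In the mouse much of the V cluster is duplicated, and copies are told apart by a D or N in the name. The locus can rearrange repeatedly, each round using V segments farther out and J segments nearer to the constant gene, where J numbers are low. In the RefSeq table of GRCm38.p6, Trav7d-2 is the Trav gene number 8 of 114 in order along chromosome 14, between Trav6-2 and Trav6d-3, and Trav7-2 is number 74, between Trav14n-3 and Trav4-2. No coordinates are given, since the genome build named for the deposited data is a human one.

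The CDR3s below carried the results. The first was found in the most numbers, and the second in 6 numbers together with 2 others of lower counts, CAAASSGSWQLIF with TRAJ22 and the first CDR3 under the name V7-2. The next 4 were the largest member clonotype of a number, and the last 2 were the largest in trametinib number 13 in brain and in ovary. All have the V name V7D-2, and they are printed from the conserved cysteine to the closing phenylalanine.
TRAJ23, in 9 of 10 numbers: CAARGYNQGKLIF
TRAJ23, in 6 numbers: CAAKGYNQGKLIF
TRAJ49, lead-in combination number 12: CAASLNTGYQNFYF
TRAJ22, lead-in combination number 14: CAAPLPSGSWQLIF
TRAJ23, concurrent combination number 6: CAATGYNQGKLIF
TRAJ18, untreated number 3: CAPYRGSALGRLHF
TRAJ16, trametinib number 13, brain: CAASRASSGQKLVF
TRAJ23, trametinib number 13, ovary: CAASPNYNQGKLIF
The 3 that end in GYNQGKLIF differ only at residue 4, between the CAA that opens the CDR3 and the part from the J segment. The largest clonotype of untreated number 7 (TRAJ22) is longer and is not printed.

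Nearly all member counts carried the name V7D-2. It had 1264 clonotypes and 65266 counts, or 20.4% of all TRA counts. That was the highest of 145 V names, and the next, V6D-5V6N-5, held 12852 counts (4.02%). The name V7-2 had 121 clonotypes and 643 counts. Of these, 120 repeated the CDR3 and J segment of a V7D-2 clonotype, and in 155 of 160 occurrences the V7D-2 clonotype was in the same sample. The joined name V7-2V7D-2, which the table uses where the copies were not told apart, had 145 clonotypes and 216 counts, and 70 of the 145 repeated a V7D-2 clonotype. Reads of such close copies may have been split between names, so TRAV7-2 and TRAV7D-2 were analysed together and no level is given for TRAV7-2 as a segment of its own. By sample, V7D-2 held the most counts of any TRA name in 25 of 29 samples, the exceptions being part 1 of number 13 in brain (rank 2) and both parts of number 1 and part 2 of number 13 in ovary (rank 3).

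The share of the members in TRA counts was highest in the lead-in combination in both organs. In brain metastases of that treatment it was 35.5% and 28.0% in parts 1 and 2 of number 12, and 17.8% and 28.7% in parts 1 and 2 of number 14. In the concurrent combination it was 10.6% and 11.9% in number 1, and 13.9% and 15.3% in number 6. With trametinib alone it was 17.7% and 13.7% in number 8, and 7.42% and 11.5% in number 13. The 2 parts of number 14 lay farther apart than their counting error, with exact Clopper-Pearson 95% intervals of 17.0 to 18.7% and 27.5 to 29.9%. After the lead-in alone the share was 19.6% and 8.0% in number 10, and 17.3% and 12% in number 11. Untreated samples held 18.2% and 17.3% in number 3, and 13.9% in number 7. Part 1 of number 14 thus lay within the range of the lead-in and untreated samples, while the other 3 samples of the lead-in combination lay above all other brain samples.

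Averaged over numbers, members held 27.5% ± 6.03 of brain TRA counts for the lead-in combination, 12.9% ± 2.36 for the concurrent combination and 12.6% ± 4.38 with trametinib (SD, n = 2 numbers each). The mean was 14.2% ± 0.611 after the lead-in alone and 15.8% ± 2.74 in untreated samples (n = 2 each). The lead-in combination was 2.13 times the concurrent combination and 1.74 times the untreated samples. The untreated samples and those after the lead-in alone were of day 0 and the others of day 3. Between these days, treatment and day cannot be told apart. Brain samples were shallow, with 230 to 9389 TRA counts against 14088 to 51549 in ovary. The 4 samples of the lead-in combination (5192 to 9389 counts) were among the 5 deepest brain samples, so treatment and depth moved together. The part of depth in the result was not tested. In the shallowest sample, part 1 of lead-in number 10, the 95% interval ran from 14.6 to 25.3%. Intervals cover counting error only.

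In ovary metastases the 2 numbers with high shares were of the lead-in combination and untreated. Number 12 of the lead-in combination held 43.9% and 38.9% in its 2 parts. Number 1 of the concurrent combination held 8.17% and 6.03%, number 13 with trametinib 8.88% and 5.80%, and number 10 after the lead-in alone 12.9% and 13.1%. Untreated number 3 held 30.3% and 26.2%. With 1 number per treatment in the ovary, the 2 parts give no spread between numbers, and no test between treatments was made there. The interval was narrow, from 12.6 to 13.2% in the deepest sample.

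**Figure D1:**
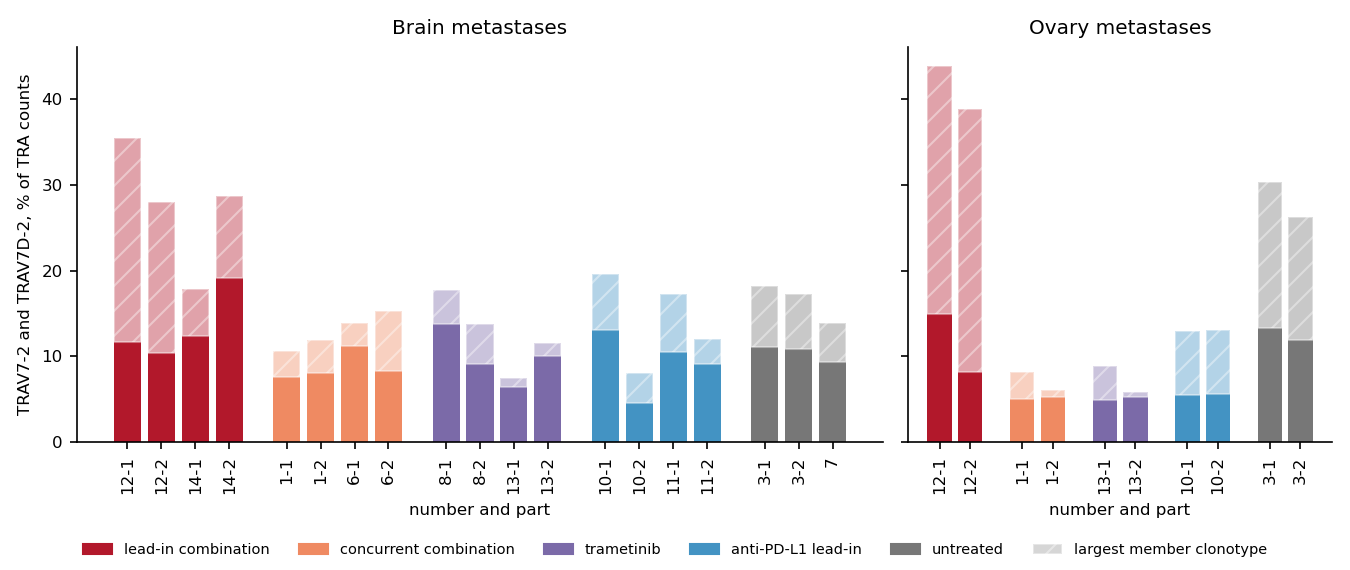
Share of TRA counts held by TRAV7-2 and TRAV7D-2 clonotypes (y axis, percent) in each brain (left) and ovary (right) sample, ordered by treatment, with the number and part of the sample on the x axis. The hatched top of each bar is the largest member clonotype of that sample, which reached 23.8% of TRA counts in part 1 of number 12 in brain and 30.8% in part 2 of number 12 in ovary.

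Much of these differences lay in the largest clonotypes. When the largest member clonotype of each sample was taken out of members and total, the brain means were 15.6% ± 2.15 for the lead-in combination and 9.13% ± 1.49 for the concurrent combination. They were 10.1% ± 2.52 with trametinib, 9.81% ± 0.659 after the lead-in alone and 10.7% ± 1.40 in untreated samples (SD, n = 2 numbers each). With the 5 largest taken out, the same means were 6.72%, 5.82%, 5.16%, 4.0% and 4.05%. In the shallow samples 5 clonotypes are a large part of all those seen, since part 1 of lead-in number 10 had 7 member clonotypes. In the ovary, leaving out the largest clonotype gave 16.4% for the lead-in combination, 5.23% for the concurrent combination, 5.19% with trametinib, 5.98% after the lead-in alone and 15% in untreated samples (means of 2 parts of 1 number).

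The share of distinct clonotypes, which counts each detected clonotype once, did not have the same order at the depths sampled. In brain it was 8.57% ± 0.490 for the lead-in combination, 7.50% ± 0.231 for the concurrent one, 9.34% ± 0.711 with trametinib, 8.49% ± 0.574 after the lead-in alone and 10.3% ± 1.45 in untreated samples (SD, n = 2 numbers each). The lead-in combination was thus 1.14 times the concurrent combination and 0.832 times the untreated samples on this scale. Which clonotypes are detected depends on depth, which differed between treatments as given above. At an equal depth of 230 drawn counts, brain number 12 of the lead-in combination was at 11.4% and untreated number 3 at 9.61%. Numbers 1, 10 and 13 were at 8.79%, 9.13% and 9.34%. No value at that depth was computed for the other brain numbers, so the order of treatments at equal depth was not tested. The mean count per member clonotype in brain was 24.2 ± 3.87 for the lead-in combination, 6.47 ± 1.23 for the concurrent one and 4.13 ± 1.32 with trametinib. It was 8.18 ± 3.42 after the lead-in alone and 4.79 ± 1.59 in untreated samples. In the same order, other TRA clonotypes averaged 5.93 ± 0.527, 3.50 ± 0.145, 3.01 ± 0.0875, 4.27 ± 1.10 and 2.85 ± 0.0799 counts each. These means were not matched for depth, and the part of depth in them was not tested. Part 1 of lead-in number 11, also among the 5 deepest brain samples (6782 TRA counts), was at 15.2 counts per member clonotype. The range for the lead-in combination was 16.3 to 32.6. In ovary, members were 12.4% of distinct clonotypes for the lead-in combination, 6.59% for the concurrent combination, 5.35% with trametinib, 6.82% after the lead-in alone and 8.10% in untreated samples.

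A part of the distinct clonotypes lay 1 residue away from a much larger one. Such near-copies, with the same V name, J segment and length as a clonotype of at least 20 times their counts in that number and organ, made up 20% and 22.8% of member clonotypes in brain numbers 12 and 14 of the lead-in combination. In the other brain numbers they made up 0 to 9.52%. In the ovary they were 37.5% in number 12 of the lead-in combination and 37.5% in untreated number 3, against 11.4 to 22.4% in the other 3 numbers. Among other TRA clonotypes the share was 0 to 3.43% in brain and 7.84 to 13.2% in ovary. Without near-copies, the ovary clonotype share of number 12 was 8.68% in place of 11.8% (parts pooled), and that of untreated number 3 was 5.53% in place of 7.84%. The rule needs a clonotype of at least 20 counts. Brain number 13, whose largest member clonotype had 15 counts, could thus hold no near-copies among its members. In brain numbers 12 and 14 the largest had 3763 and 868 counts. The shares of near-copies therefore depend on depth and clone size by construction, and no difference between treatments or organs is read from them. Whether near-copies are cells or errors of amplification and sequencing was not tested.

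The brain comparisons without the lead-in combination were tested with edgeR's quasi-likelihood test on counts per V name and number, over 97 names of both chains. Members differed by 0.05 ± 0.31 on the log2 scale in the concurrent combination against trametinib (12.9% and 12.6% of TRA counts, edgeR adjusted p = 0.980). They differed by -0.32 ± 0.32 with trametinib against untreated (12.6% and 15.8%, edgeR adjusted p = 0.921). After the lead-in alone against untreated the difference was -0.21 ± 0.31 (14.2% and 15.8%, edgeR adjusted p = 0.996; SE throughout). Of the 97 names edgeR called 0 in each comparison (0% of the names tested), with 4, 5 and 4 at an unadjusted p under 0.05. DESeq2 called 0 in each, with 6, 4 and 7 at an unadjusted p under 0.05. With 2 numbers per group these misses do not show that the shares were alike. The concurrent combination against trametinib turned to -0.23 without the largest clonotype of each number and to -0.33 over distinct clonotypes. It was -0.14 without number 6 and -0.31 without number 13. Trametinib against untreated was 0.04 without number 13, and the lead-in against untreated was 0.06 without number 10. These comparisons share samples, trametinib in the first 2 and untreated in the last 2.

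The other TRAV7 names, whose segments lie in the same duplicated cluster, had 17 names without V7-2 or V7D-2, 2729 clonotypes and 28853 counts. In brain they held 7.75% ± 0.218 of TRA counts for the lead-in combination, 10.3% ± 0.782 for the concurrent combination and 12.7% ± 2.88 with trametinib. They held 7.81% ± 2.14 after the lead-in alone and 13.1% ± 2.15 in untreated samples (SD, n = 2 numbers each). In ovary they held 4.13% in number 12 of the lead-in combination, 9.63% in number 1 of the concurrent combination, 8.13% in number 13 with trametinib, 12.6% in number 10 after the lead-in alone and 8.42% in untreated number 3. By these means they were below the members in both organs for the lead-in combination, the lead-in alone and untreated samples. In the concurrent combination they were below the members in brain and above them in ovary. With trametinib they were above in ovary and close in brain (12.7% and 12.6%). Brain numbers differed in direction with trametinib (14.8% against 15.7% for members in number 8, 10.7% against 9.48% in number 13). Untreated brain numbers did so too (11.6% against 17.7% in number 3, 14.6% against 13.9% in number 7). In ovary numbers 1, 10 and 13 the 2 parts differed in direction. By counts over both organs the largest single name was V7D-3, at 0 to 4.94% of TRA counts in brain samples and 0.914 to 6.39% in ovary samples. In brain alone V7-4V7D-4 held more, 1008 counts against 872. Of the family, 12 names were tested by edgeR and 0 were called in each of the 3 comparisons. Their median log2 differences were -0.53 in the concurrent combination against trametinib, 0.43 with trametinib against untreated and -0.37 after the lead-in against untreated. Over all 97 names the medians were 0.05, 0 and 0.04.

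Each high share had its own leading clonotype. In the lead-in combination number 12, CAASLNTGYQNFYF with TRAJ49 had 2113 and 1650 counts in the 2 brain parts (23.8% and 17.6% of TRA counts). It had 8016 and 7219 counts in the 2 ovary parts (29.0% and 30.8%), so that both ovary parts lay above both brain parts. Outside number 12 it was seen only in part 2 of brain number 13, with 5 counts. In the lead-in combination number 14, sampled in brain alone, the largest clonotype over both parts was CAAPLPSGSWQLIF with TRAJ22, with 440 and 428 counts (5.48% and 8.24%), and it was found in no other number. The parts of number 14 differed in their leading clonotype, since part 2 was led by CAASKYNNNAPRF with TRAJ43 at 9.57%, a clonotype named here after its value was seen.

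In untreated number 3, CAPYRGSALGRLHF with TRAJ18 had 26 and 18 counts in the brain parts (7.16% and 4.86% of TRA counts). It had 6377 and 3100 counts in the ovary parts (17.0% and 14.3%) and was found in no other number. The 2 ovary numbers with the highest shares were thus led by different clonotypes, each also present in brain of the same number. As given above, both numbers also stayed above the other 3 without these clonotypes. In the concurrent combination number 6, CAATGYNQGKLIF had 36 and 136 counts in the 2 brain parts (2.12% and 7.09%). With trametinib, number 13 was led by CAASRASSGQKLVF with 9 and 6 counts in brain and by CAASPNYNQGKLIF with 559 and 63 counts in ovary (3.97% and 0.436%). In untreated number 7 the largest clonotype had 29 counts (4.57%).

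In the remaining numbers the largest member clonotype was the same one, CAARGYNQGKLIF with TRAJ23. It led the members in brain numbers 1, 8, 10 and 11 and in ovary numbers 1 and 10, and was present in 9 of 10 numbers and 27 of 29 samples, with 12223 counts in all. In brain of the lead-in combination it held 4.13% and 3.29% of TRA counts in number 12, and 3.26% and 5.51% in number 14. In the concurrent combination it held 3.06% and 3.89% in number 1, and 1.77% and 0.626% in number 6. With trametinib it held 3.93% and 1.74% in number 8, and 0.232% and 0.450% in number 13. After the lead-in alone it held 3.48% and 3.43% in number 10, and 6.84% and 2.94% in number 11. In untreated brain it held 6.49% in part 2 of number 3, and had 0 counts in part 1 and in number 7, which allows a share of up to 0.826% and 0.472% at their depths. The treatments overlapped, and the 2 parts of untreated number 3 lay farther apart than any other pair of parts in brain.

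**Figure D2:**
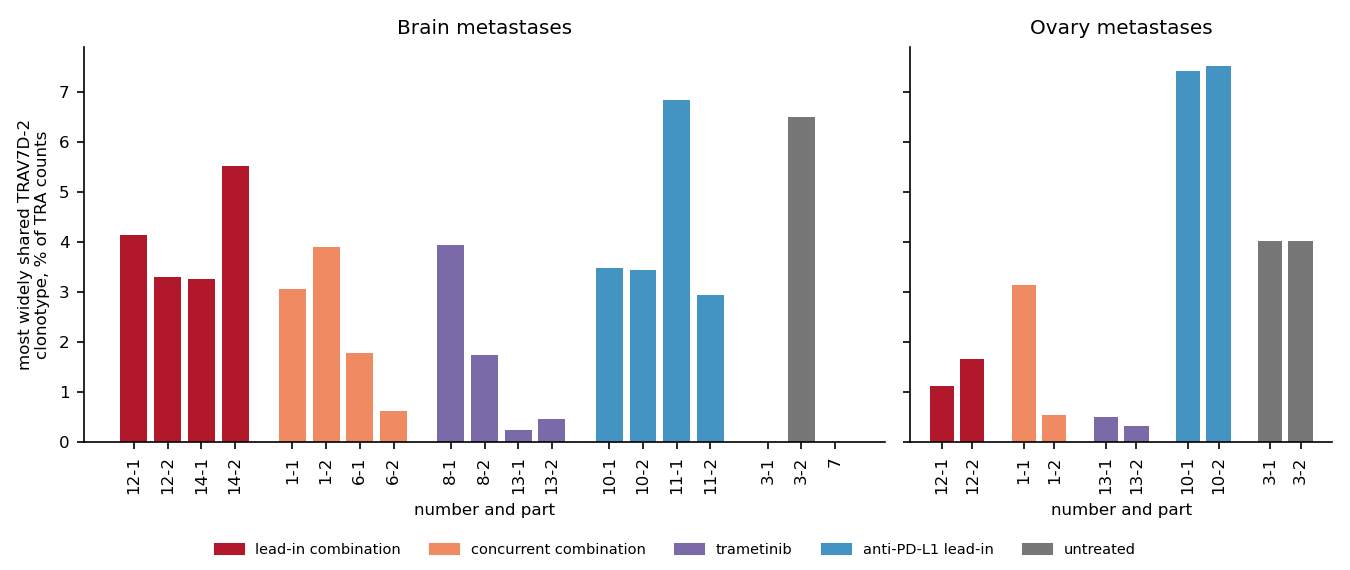
Share of TRA counts (y axis, percent) held by the most widely shared TRAV7D-2 clonotype, which joins TRAJ23, in each brain (left) and ovary (right) sample, ordered by treatment, with number and part on the x axis. The share spans 0 to 6.84% in brain and 0.312 to 7.52% in ovary, and samples of different treatments overlap in brain.

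In the ovary the same clonotype held 1.11% and 1.65% of TRA counts for the lead-in combination, 3.14% and 0.538% for the concurrent combination and 0.497% and 0.312% with trametinib. It held 7.42% and 7.52% after the lead-in alone and 4.01% in both untreated parts. Its CDR3 was not tied to this V segment. The sequence also occurred under 10 other V names with 1561 counts, of which 980 were of V14-2V14N-2. The same CDR3 under the name V7-2 had 100 counts over 6 numbers. Its relative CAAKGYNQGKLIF had 239 counts in 12 samples of 6 numbers, and no more than 1.5% of TRA counts in any sample. By the rule given above it was a near-copy of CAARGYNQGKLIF in ovary numbers 10 and 3 and in brain number 12. In ovary number 10, for example, it had 23 and 33 counts against 3825 and 2210.

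A higher share of member clonotypes than of other TRA clonotypes was found in more than 1 number. Of 1530 members, 176 (11.5%) were found in at least 2 numbers and 60 (3.92%) in at least 3. Of 20429 other TRA clonotypes, 1284 (6.29%) were found in at least 2 and 299 (1.46%) in at least 3. At 7 or more numbers the shares were 0.0654% of members (1 clonotype) and 0.0685% of other TRA clonotypes (14 clonotypes), and 2 other TRA clonotypes but no member were found in all 10 numbers. These shares are a description with no test, since clonotypes of a number share its depth and copies of a clonotype under V7-2 and V7D-2 are counted separately. Recurring members were shorter and more often joined TRAJ23. Of the 60 clonotypes in at least 3 numbers, 38.3% used TRAJ23, against 11% of the 1354 found in 1 number. Their mean CDR3 length was 13 ± 0.688 residues, against 13.5 ± 1.13 (SD over clonotypes). Near-copies and repeats under V7-2 were not left out of these values, and their part in them was not tested.

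The CDR3s of the members had a common start. Of the 1530, 1346 (88.0%) began with CAA, against 31.7% of other TRA clonotypes. At residue 4, serine followed in 759 of the 1346 (56.4%) and arginine in 215 (16.0%). Clonotypes beginning with CAA and ending in YNQGKLIF with TRAJ23 numbered 89 and held 17182 counts over 9 numbers. Of these, 16 clonotypes (9 distinct CDR3s) had just 1 residue before GYNQGKLIF and held 13511 counts.

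TRAJ23 was the most used partner in both organs. It was joined in 63 of 624 member clonotypes in brain (10.1%, against 5.42% of other TRA clonotypes) and in 158 of 1099 in ovary (14.4%, against 5.83%). In brain TRAJ22 followed with 8.33% against 5.87%, and TRAJ49 with 6.57% against 3.06%. In ovary TRAJ18 followed with 6.37% against 2.51%, and TRAJ49 with 6.10% against 3.84%. Many TRAJ23 member clonotypes in ovary were near-copies, 42 of 64 in number 3 and 41 of 61 in number 10. In ovary numbers 12, 1 and 13 they were 19 of 35, 13 of 30 and 10 of 21. In brain they were 8 of 26 in number 12 and 5 of 20 in number 14. The TRAJ23 share without near-copies was not computed. The other ranks rested on the numbers with a large clonotype and on its near-copies. In ovary 56 TRAJ18 member clonotypes were of untreated number 3, 42 of them near-copies, and 58 TRAJ49 member clonotypes were of number 12, 50 of them near-copies. In brain 35 TRAJ49 member clonotypes were of number 12 (26 near-copies) and 21 TRAJ22 ones of number 14 (13 near-copies). With that number left out, TRAJ18 in ovary was at 1.78% of member and 2.59% of other TRA clonotypes, and TRAJ49 at 1.26% and 4.02%. In brain TRAJ49 was then at 1.72% and 2.98%, and TRAJ22 at 6.69% and 6.12%. By counts TRAJ49 led in both organs, with 33.4% of member counts in brain and 29.1% in ovary. This was largely number 12, where TRAJ49 held 68.7% and 65.8% of member counts in the brain parts and 68.1% and 81.8% in the ovary parts, while it had 0 counts in 12 of the 19 brain samples.

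**Figure D3:**
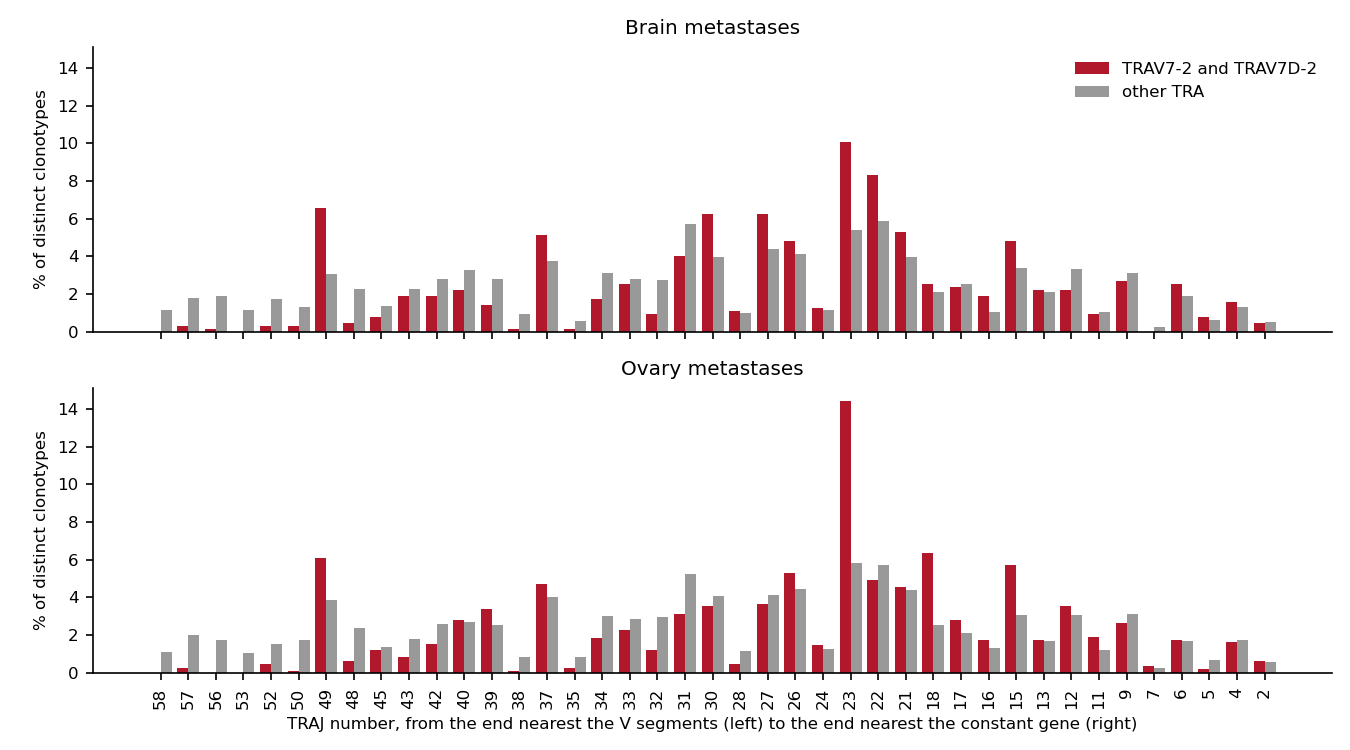
Share of distinct clonotypes (y axis, percent) that joined each TRAJ segment (x axis, in order along the locus, high numbers nearest the V segments), for TRAV7-2 and TRAV7D-2 clonotypes and for other TRA clonotypes in brain (top) and ovary (bottom). TRAJ23 is the tallest bar of the members in both organs, at 10.1% in brain and 14.4% in ovary.

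Members joined TRAJ segments of lower number, nearer to the constant gene, than other TRA clonotypes of the same brain samples did. The mean TRAJ number over distinct clonotypes was 25.5 ± 1.26 for members and 29.4 ± 0.402 for other TRA clonotypes (SD, n = 10 numbers), a difference of -3.84. It was lower in 10 of 10 numbers (exact two-sided sign-flip permutation p = 0.00195, the smallest that 10 numbers can give, adjusted p = 0.00488 over 5 tests). The difference ran from -5.09 in numbers 7 and 13 to -0.511 in number 12 of the lead-in combination. In the ovary it was -4.06 over 5 numbers, with -6.06 to -4.73 in 4 of them and 1.11 in number 12 (exact permutation p = 0.125, adjusted p = 0.208). Weighted by counts in brain it was -2.24 (exact permutation p = 0.229, adjusted p = 0.381).

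Members also had shorter CDR3s. The mean length over distinct brain clonotypes was 13.3 ± 0.185 residues for members and 13.6 ± 0.0766 for other TRA clonotypes (SD, n = 10 numbers), a difference of -0.303 residues. It was lower in 10 of 10 numbers, with differences of -0.536 to -0.0526 residues (exact two-sided sign-flip permutation p = 0.00195, the smallest possible, adjusted p = 0.00488). J segments differ in length, and with the other TRA clonotypes weighted to the J usage of the members in each number the difference was -0.155 residues (exact permutation p = 0.00391, adjusted p = 0.00977). In the ovary the members were shorter in 5 of 5 numbers, with a difference of -0.248 residues (exact permutation p = 0.0625, the smallest that 5 numbers can give, adjusted p = 0.104).

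**Figure D4:**
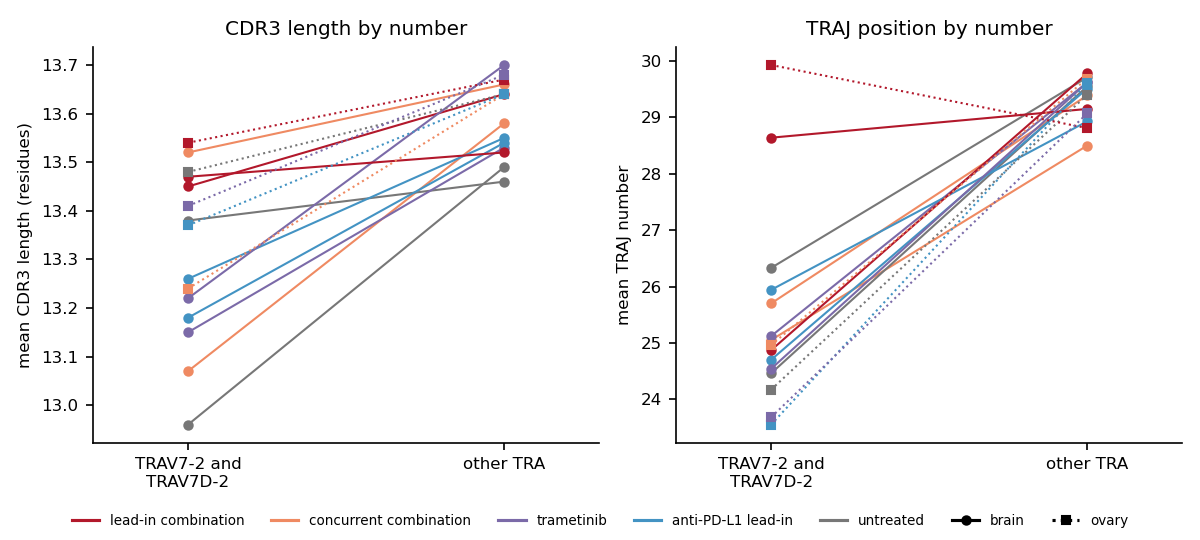
Mean CDR3 length in residues (left panel, y axis) and mean TRAJ number (right panel, y axis) of TRAV7-2 and TRAV7D-2 clonotypes and of other TRA clonotypes, joined by a line for each number in brain (circles, solid) and ovary (squares, dotted), coloured by treatment. Lengths of members lie below those of other TRA in all 15 lines, and TRAJ numbers in all but the ovary line of number 12.

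Between organs of the same number the share of the members did not move one way. The count measure is the one by which the members were chosen, and brain number 12 of the lead-in combination is among its values. Its p-values over all 5 numbers are therefore given without any conclusion drawn from them. Over the 5 numbers sampled in both, members held 16.8% ± 8.92 of TRA counts in brain and 19.4% ± 15 in ovary (SD, n = 5), a difference of -2.61 percentage points (exact two-sided permutation p = 0.802, adjusted p = 0.802). Without number 12 it was -0.856 percentage points (13.1% in brain and 13.9% in ovary, exact permutation p = 0.971, adjusted p = 0.971). Brain was higher in numbers 1, 10 and 13 and lower in numbers 3 and 12. The share of distinct clonotypes, with parts pooled, was 8.05% ± 1.18 in brain and 7.61% ± 2.51 in ovary. This difference was 0.437 percentage points (unpaired exact permutation p = 0.738, adjusted p = 0.802). Paired by number it had an exact sign-flip permutation p = 0.625 (adjusted p = 0.781). Depth differed between the organs in every number. With parts averaged the second difference was 0.856 (8.72% in brain and 7.86% in ovary). At an equal depth of 230 drawn counts, also with parts averaged, it was 0.506 (9.64% in brain and 9.14% in ovary). With parts pooled and near-copies, which depend on depth, left out it was 1.21 (7.57% in brain and 6.36% in ovary, exact permutation p = 0.159, adjusted p = 0.198). Leaving out the largest clonotype turned the first to 1.20 percentage points, and leaving out number 13 turned the second to -0.359.

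Member clonotypes of a number were shared between its organs. The Morisita-Horn index, which is 100% for equal compositions and weights clonotypes by their share, averaged 73.3% ± 31.3 over the 5 matched pairs of brain and ovary and 19.6% ± 22.4 over the 20 unmatched pairs (SD; exact one-sided permutation p = 0.00833, the smallest that 5 numbers can give, adjusted p = 0.0139). It was 97.6% in number 12 of the lead-in combination, 88.4% in number 1 of the concurrent combination and 19.1% in number 13 with trametinib. It was 74.8% in number 10 after the lead-in alone and 86.4% in untreated number 3. The clonotypes seen in both organs numbered 66 in number 12, or 35.7% of its brain and 24.7% of its ovary members, and 27, 15, 5 and 10 in numbers 1, 13, 10 and 3. Overlap was computed for the members only. Whether other TRA clonotypes were shared between organs to a like degree was not tested, so the overlap is not a trait shown to be particular to the members.

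Unmatched pairs could also be similar. Brain number 1 with ovary number 10 reached 80.5%, and brain number 10 with ovary number 1 reached 73.2%, both numbers being led by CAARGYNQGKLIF. The median of the unmatched pairs was 13.7%. Leaving out any 1 of the 5 numbers gave matched means of 67.2 to 86.8%, with an exact permutation p of 0.0417, the smallest that 4 numbers can give, and adjusted p = 0.0694. Without the largest member clonotypes the means were 37.1% in matched and 12.2% in unmatched pairs (exact permutation p = 0.00833, adjusted p = 0.0139).

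**Figure D5:**
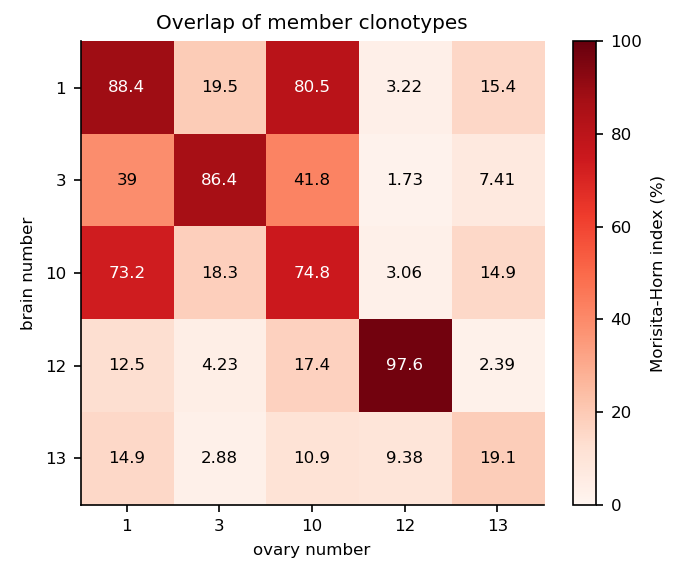
Morisita-Horn index of member clonotypes (percent, darker is higher) between brain (rows) and ovary (columns) of the 5 numbers sampled in both organs. The diagonal holds the matched pairs, 19.1 to 97.6%, and the unmatched pairs range from 1.73 to 80.5%.

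Among 96 other V names tested, those whose share of their chain had the highest positive correlation with that of the members over the 10 brain numbers were TRAV6N-6 (Pearson r 0.70), TRBV23 (0.69) and TRBV26 (0.67). Spearman's rho was -0.30, -0.31 and 0.43. The first 2 rested on number 12, where TRAV6N-6 held 4.92% of TRA counts and TRBV23 9.37% of TRB counts. Without that number their r was -0.71 and -0.65, and that of TRBV26 was 0.47. Without numbers 12 and 14 the 3 values were -0.78, -0.65 and 0.07. Some negative correlations were as large, TRAV13D-1 at -0.78, TRAV6D-5V6N-5 at -0.71 and TRBV15 at -0.68, and without numbers 12 and 14 they were -0.59, -0.39 and -0.84. These 3 were named after their values were seen. All are descriptions, since the members were chosen for their level and the names share libraries and totals.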

How the data were processed

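Per the labels' protocols, the QIAseq Immune Repertoire RNA kit was used to make the libraries, from RNA of AllPrep and mirVana kits. The authors deposited 1 table of whole-number counts without normalization, 1 column per sample. What 1 count stands for (read or molecule), the aligner and the clonotype caller were not given in the sources used here. GRCh38 is the build in the submitters' processing notes. Of 49519 rows, 176 with an unresolved CDR3 residue (222 counts) were left out.

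The members, lists and tests were chosen with earlier results of these data known. Named are the member names, the other TRAV7 names, the largest member clonotype of each number and organ, the 3 clonotypes in most numbers (ties by summed count), the 3 most used TRAJ partners per organ and the 3 V names of highest correlation. CDR3s were printed up to 14 residues.

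V usage was fitted with edgeR 4.0.16 in R 4.3.3 (quasi-likelihood, all 10 brain numbers with parts summed, offset by the log chain total, at least 10 counts in at least 2 libraries, threshold 0.05 after Benjamini-Hochberg adjustment), with DESeq2 1.42.0 as an alternative. Other values came from numpy 2.4.6, scipy 1.17.1 and pandas 2.3.3 under Python 3.11.15, with matplotlib 3.10.9 for the plots. The 5 exact permutation tests were adjusted together. Scripts were tested on simulated data. Intervals are exact Clopper-Pearson 95% intervals, and the limit for a count of 0 is 3 counts of the total. Same-numbered brain and ovary samples deviated together in V usage (correlation over 96 V names of 0.619, 0.266, 0.531, 0.843 and 0.648 for numbers 1, 3, 10, 12 and 13), so the organ tests, unpaired in the main design, were also run with number as a block. The highest unmatched correlation was 0.498. No 2 samples were identical. Alternatives changed the normalization, filter, clone weighting, member names, largest clonotype and replicates. Near-copies, equal depth, J-matched weights and CDR3 ends were added after the data had been seen.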

Additional observations from a re-analysis of the deposited data

Results flagged for a closer look

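Among the 5 numbers sampled in both organs, the share of distinct clonotypes in brain (parts averaged) was 7.66% in number 1 of the concurrent combination, below the other 4, which lay between 8.84 and 9.26%. With the parts of a number pooled, number 1 was at 7.28% and number 10 was lower, at 6.37%. The first gap was 0.734 of the range of the 5 values. How often chance gives such a gap was not tested.

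The difference between brain and ovary ran in opposite directions in different treatments, with both brain parts on one side of both ovary parts. For the share of TRA counts it was -9.61 percentage points in number 12 of the lead-in combination, 4.17 in number 1 of the concurrent combination and -10.5 in untreated number 3. For the share of distinct clonotypes it was -3.53 in number 12 of the lead-in combination, 1.07 in number 1 of the concurrent combination and 3.49 in number 13 with trametinib (parts averaged). With parts pooled and near-copies left out these were -1.48, 0.434 and 3.93. With 1 number per treatment, the difference between these was not tested.

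Some counts lay outside the members as defined. Names that join V7D-2 with other segments held 100 counts in 80 rows under 2 names, and 7 member rows with an unresolved CDR3 residue held 7 counts.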

How the results depend on the processing

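Shallow brain samples and 2 numbers per treatment limit every comparison, and rare clonotypes were not detectable at 230 counts. For the share of TRA counts in brain minus ovary, the log2 scale gave 0.01 and leaving out the largest clonotype 1.20, and without 1 number it was -4.30 to -0.629. The clonotype share ran from -0.359 (without number 13) to 1.33, and was 1.21 without near-copies. With number as a replicate block, the paired differences of -2.61 and 0.437 had adjusted p = 0.625 and 0.781 (exact sign-flip permutation), and pairing changed no call. The concurrent combination against trametinib turned to -0.23 without the largest clonotype and to -0.33 over distinct clonotypes. Without 1 number it was -0.31 to 0.51 (below 0 without number 6 or 13), trametinib against untreated was -0.78 to 0.04 (above 0 without number 13), and the lead-in against untreated was -0.54 to 0.06 (above 0 without number 10). V names called in the last comparison were 0, and 1 without untreated number 7 (TRAV6-6V6D-6, edgeR adjusted p = 0.0172, no member), where number 3 alone stood for the untreated group and was assumed to vary like the others. CDR3 length missed the threshold in the 5 ovary numbers (-0.248), too few to pass. The TRAJ difference missed it weighted by counts (-2.24) and in ovary (-4.06). The matched overlap was 67.2 to 86.8% without 1 number (adjusted p = 0.0694), where 4 numbers allow no smaller exact permutation p than 0.0417. Over the alternatives, adjusted p ranged from 0.625 to 0.984 for the organ difference in counts, 0.198 to 0.914 for that in clonotypes, 0.00488 to 0.104 for CDR3 length, 0.00488 to 0.381 for the TRAJ number and 0.0139 to 0.0694 for overlap. Where no cause is named, the cause was not tested.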
